A study of Homo sapiens with 6 samples.

Results

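The nuclear-encoded subunits of the mitochondrial respiratory chain and ATP synthase were examined in Huh7, a human hepatocellular carcinoma cell line. Members were every gene symbol of the deposited FPKM table with an NDUFA, NDUFB, NDUFC, NDUFS or NDUFV number, SDHA to SDHD, and the UQCR, COX4 to COX8, ATP5 and CYC1 symbols. This rule, which uses names and no measured value, found 87 of 27689 symbols, carried by 211 transcript rows. They comprised 36 symbols of complex I, 4 of complex II, 11 of complex III, 17 of complex IV and 16 of complex V. The remaining 3 (COX7A2L, ATP5S and ATP5SL) match by name but are not core parts of a complex. NDUFA4 was counted with complex IV, to which the protein is now assigned.

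Polyadenylated RNA was sequenced from 6 libraries, all labelled Huh7. Of these, 3 were labelled NC and 3 NACER_ASO, and the design text speaks of a NACER knockdown. Titles number the sets 2, 5 and 6, with an NC and a NACER_ASO library in every set. The sources used here do not state the dose, the time of treatment, the meaning of NC or what a set stands for. They also do not say whether libraries came from separate cultures. The p-values therefore reflect only the spread between these libraries, which may be technical.

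Oxidative phosphorylation couples electron transport to ATP synthesis in the inner mitochondrial membrane. Complexes I and II pass electrons from NADH and succinate to ubiquinone, complex III passes them on to cytochrome c, complex IV reduces oxygen, and complex V uses the proton gradient to make ATP. Complexes I, III, IV and V combine a few subunits made from mitochondrial DNA with many imported, nuclear-encoded ones, whereas complex II is wholly nuclear-encoded. Liver cells depend on this chain for gluconeogenesis, ureagenesis and fatty acid oxidation, and hepatoma lines keep it to varying degrees. Of the 13 mitochondrially encoded subunits, 0 had a row in the table, so only the nuclear side is described.

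Libraries of the same set resembled each other more than libraries of the same group, and set 5 stood apart. All 13 hepatocyte and hepatoma markers were present, with summed levels of 3258 and 3662 FPKM in NC and NACER_ASO of set 2, 6334 and 6489 FPKM in set 5, and 1518 and 1476 FPKM in set 6. The 7 stromal markers summed to between 224 and 265 FPKM in the 4 libraries of sets 2 and 6, mostly LUM and COL1A2, and to 1.55 and 1.75 FPKM in set 5, where LUM was at 0 and 0.017 FPKM. All 6 libraries are labelled as the same line, and whether they hold the same cells was not tested, so differences between sets and between cells cannot be told apart. The 6 immune markers summed to between 73.7 and 136 FPKM in sets 2 and 6 and to 515 and 537 FPKM in set 5, nearly all of it LYZ, while PTPRC and CD3E stayed under 1 FPKM in all 6 libraries. Endothelial and muscle markers summed to at most 1.09 and 0.659 FPKM. Steps between low values implied depths from 15.6 M fragments (NC set 2) to 28.4 M (NACER_ASO set 5). These depths are rough, because at most 38.9% of such values in a library came within 2% of a whole fragment number. The part of these differences in any result below was not tested.

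Promoters are shown because the members were described together and nuclear respiratory genes are known to be driven largely through NRF1, GABP and YY1. RefSeq promoters (GRCh38.p14, 250 bases before to 50 after the start) were found for 68 of the 87 symbols. The NRF1 core CGCATGCG, read on both strands as were the other motifs, was in the promoters of 11 of the 68 (16.2%), against 2.46% of 27305 genes with a promoter. AAGATGGC, a YY1 motif, was in 12 (17.6%), against 3.52%, and CCGGAAGT, the ETS motif that GABP reads, in 11 (16.2%), against 4.95%. At least 1 of these motifs was in 30 of the 68 (44.1%), against 10.1% of all genes. The letters of the 3 motifs do not overlap with each other in the promoters printed here. Each run below holds 150 bases before and 30 from the start of transcription, and capitals mark a motif or its reverse complement. NDUFS4 is at chr5:53560489-53560668 (+), NDUFS7 at chr19:1383757-1383936 (+), SDHD at chr11:112086723-112086902 (+), UQCRQ at chr5:132866492-132866671 (+), COX5B at chr2:97645912-97646091 (+) and ATP5A1, listed under its newer symbol ATP5F1A, at chr18:46098267-46098446 (-).
NDUFS4: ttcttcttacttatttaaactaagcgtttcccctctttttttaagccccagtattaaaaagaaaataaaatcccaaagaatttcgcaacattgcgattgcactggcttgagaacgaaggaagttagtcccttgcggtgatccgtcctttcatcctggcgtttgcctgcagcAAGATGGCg
NDUFS7: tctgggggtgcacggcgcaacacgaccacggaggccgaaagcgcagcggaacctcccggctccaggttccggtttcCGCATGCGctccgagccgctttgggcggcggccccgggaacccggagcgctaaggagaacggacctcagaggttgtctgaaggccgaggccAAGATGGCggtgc
SDHD: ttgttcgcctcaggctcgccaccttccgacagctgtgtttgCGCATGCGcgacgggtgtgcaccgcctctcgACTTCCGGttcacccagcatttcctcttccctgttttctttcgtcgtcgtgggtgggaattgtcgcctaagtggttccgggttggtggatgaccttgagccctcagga
UQCRQ: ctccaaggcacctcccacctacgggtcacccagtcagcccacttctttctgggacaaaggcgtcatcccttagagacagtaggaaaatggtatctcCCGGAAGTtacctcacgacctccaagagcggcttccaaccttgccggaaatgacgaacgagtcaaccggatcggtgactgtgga
COX5B: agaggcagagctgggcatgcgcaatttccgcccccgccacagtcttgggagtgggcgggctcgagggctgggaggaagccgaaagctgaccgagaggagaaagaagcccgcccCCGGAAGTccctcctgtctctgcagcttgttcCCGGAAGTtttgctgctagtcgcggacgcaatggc
ATP5A1: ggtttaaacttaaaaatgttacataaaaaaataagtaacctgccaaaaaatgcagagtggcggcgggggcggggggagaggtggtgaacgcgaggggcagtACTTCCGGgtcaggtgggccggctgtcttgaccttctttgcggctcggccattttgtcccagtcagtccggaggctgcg
NDUFS4 and NDUFS7 carry the YY1 motif just after the start. NDUFS7 also has the NRF1 core upstream, and SDHD has the NRF1 core and the ETS motif. UQCRQ and ATP5A1 show 1 ETS motif each, and COX5B shows 2. A match describes letters in a window, and binding was not measured.

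The members were abundant, and complexes IV and V more so per subunit than I and II. Together they took 2.12%, 2.69% and 2.28% of the summed FPKM in NC sets 2, 5 and 6, and 2.09%, 2.79% and 2.36% in NACER_ASO. FPKM is corrected for transcript length, so levels of different genes can be set side by side. The median member had a mean of 240.2 FPKM among the 11 tested subunits of complex IV, 195 in complex V, 74.4 in complex III, 67.3 in complex I and 50.2 in complex II.

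**Figure D1:**
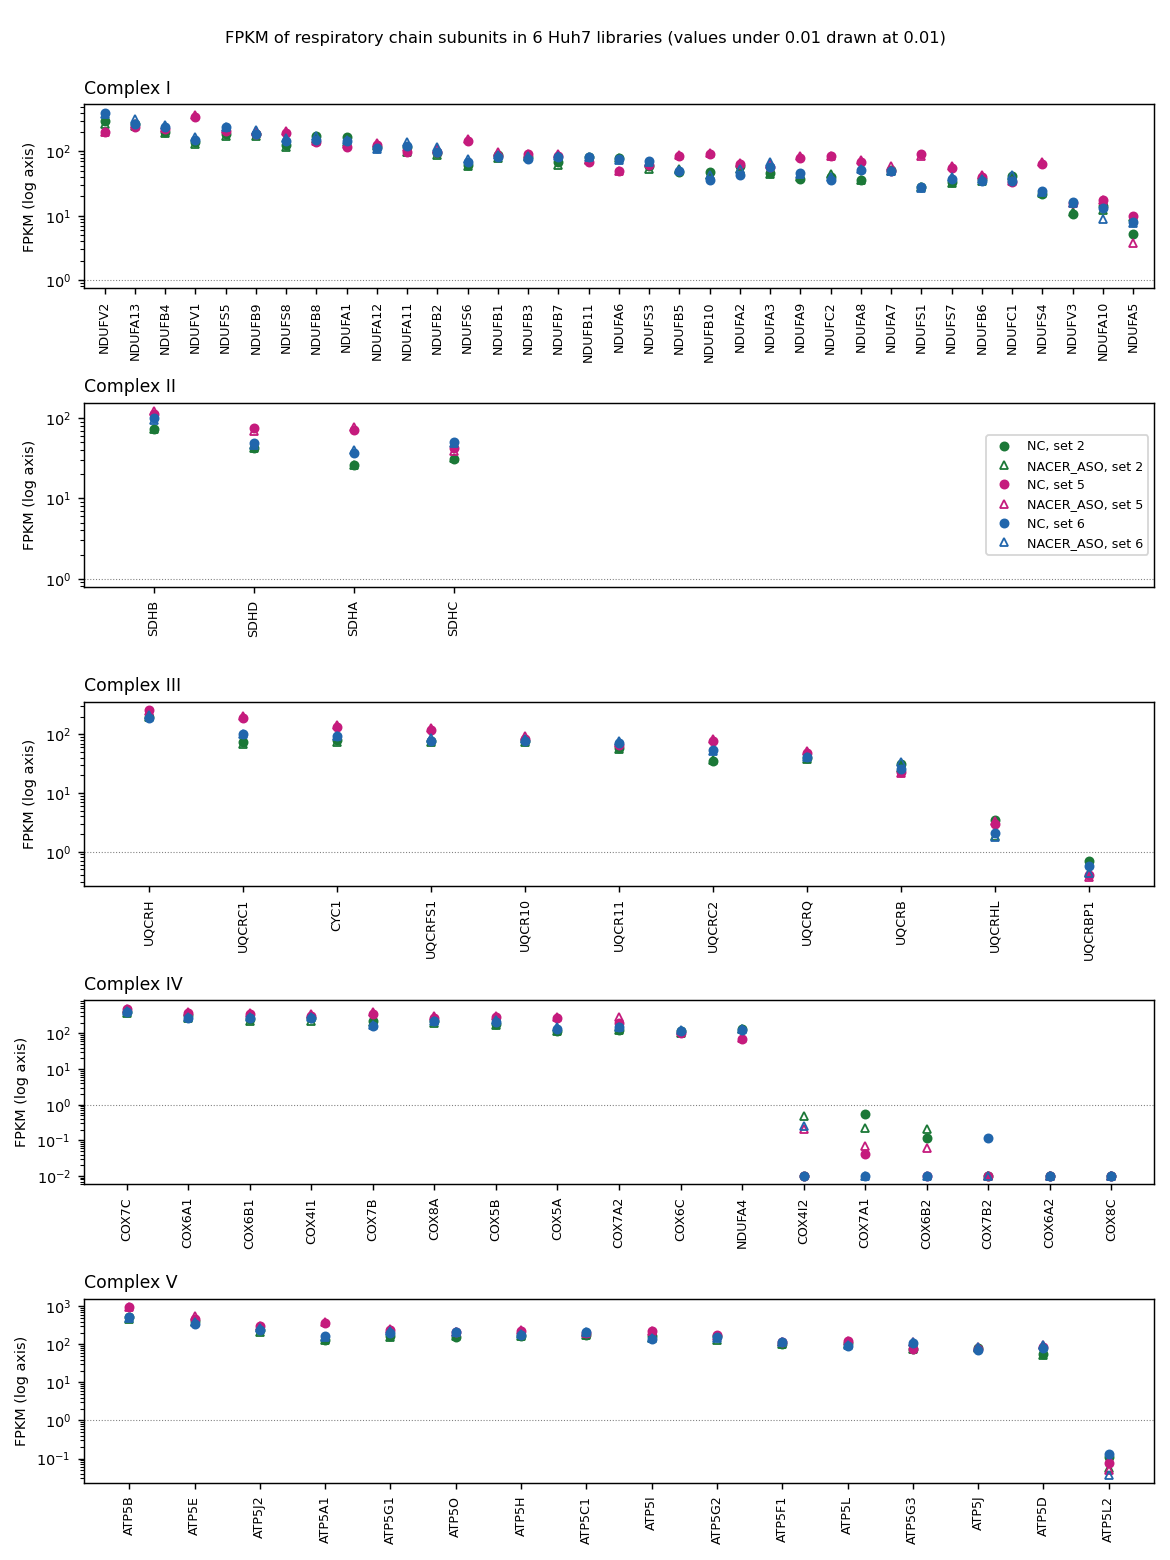
FPKM of members of complexes I to V (log axis) in each of the 6 libraries, ordered by mean; filled circles are NC, open triangles NACER_ASO, and colours are sets. For many members the 6 points lie close together, while NDUFS1, NDUFV1, SDHA, UQCRC1, COX5A and ATP5A1 show the set 5 pair above the rest and NDUFV2 and NDUFA4 show it below.

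ATP5B, the catalytic beta subunit of ATP synthase, had the highest mean of all members, with 512, 941 and 512 FPKM in NC sets 2, 5 and 6 and 478, 938 and 486 FPKM in NACER_ASO. ATP5E, the epsilon subunit of its central stalk, came next with 424, 478 and 341 FPKM in NC and 389, 548 and 399 FPKM in NACER_ASO. Both set 5 libraries were the highest for either gene, and NC and NACER_ASO overlapped. COX7C, a small structural subunit of complex IV, was at 403, 487 and 389 FPKM in NC and 371, 493 and 414 FPKM in NACER_ASO. COX6A1, the common form of a regulatory subunit, was at 329, 380.4 and 271 FPKM in NC and 275, 396 and 291 FPKM in NACER_ASO. For these complex IV genes the set 5 pair was again highest. In complex I the highest means belonged to NDUFV2, an iron-sulfur subunit of the NADH-binding module, and NDUFA13, an accessory subunit of the membrane arm also known as GRIM-19. NDUFV2 was at 294, 202 and 399 FPKM in NC and 266, 201 and 389 FPKM in NACER_ASO. NDUFA13 was at 264, 244 and 269 FPKM in NC and 249, 268 and 315 FPKM in NACER_ASO. NDUFV2 was lowest in set 5, while NDUFA13 had no such order. UQCRH, the hinge protein that contacts cytochrome c, led complex III with 200.4, 261 and 194 FPKM in NC and 197, 249.7 and 212 FPKM in NACER_ASO.

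Where a subunit has tissue-specific copies, the common copy carried nearly all of the signal. Of the heart and skeletal muscle forms, COX6A2 was listed at 0 in all 6 libraries and COX7A1 reached 0.543 FPKM. COX8C was at 0 in all 6 libraries, and COX7B2 was above 0 only in NC set 6 (0.116 FPKM). COX6B2 reached 0.205 FPKM. COX4I1, the common form of subunit IV, held at least 99.8% of the pair with COX4I2, the form known from lung. COX4I2 was listed at 0 in the 3 NC libraries and at 0.469, 0.204 and 0.246 FPKM in NACER_ASO sets 2, 5 and 6, a level under the filter in every library and not tested. UQCRHL, an intronless copy of UQCRH, took between 0.836% and 1.68% of that pair, and UQCRBP1 and ATP5L2 reached 0.692 and 0.129 FPKM. Of these copies, 8 (COX4I2, COX6A2, COX6B2, COX7A1, COX7B2, COX8C, UQCRBP1 and ATP5L2) did not reach 1 FPKM in at least 3 libraries, which left 79 of 87 members among the 13576 genes tested. The c ring of ATP synthase, by contrast, drew on all 3 of its genes, whose mature proteins are the same: ATP5G1 gave 41.7% to 47.7% of their sum, ATP5G2 30.9% to 39.6% and ATP5G3 15.7% to 24.1%. Many of these genes have processed copies in the genome, and the sources used here do not state how reads shared with such copies, or between strands, were divided. The antisense gene NDUFV2-AS1 was at 0.780 to 5.25 FPKM and the readthrough gene SLMO2-ATP5E at 8.74 to 15.9 FPKM, both far under their partners NDUFV2 and ATP5E.

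The knockdown comparison asked whether NACER_ASO changed these genes. No member passed the test, and the estimated differences were small. With limma on log2(FPKM + 1) across 13576 genes, 0 of the 79 members and 0.0% of all genes differed between the 3 NACER_ASO and 3 NC libraries at a Benjamini-Hochberg adjusted p of 0.05, and with the set as a block the shares were again 0 of 79 and 0.0%. At an unadjusted p under 0.05 there were 0 members in either fit, against 20 genes in all without the block and 1685 with it. The smallest adjusted p of a member was 0.999994 without the block and 0.411 with it. The median log2 difference (NACER_ASO minus NC) was 0.03 over the members and 0.04 over all genes, and members ranged from -0.24 for NDUFA10 to 0.18 for ATP5G3.

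The precision depended on whether sets were compared within themselves. The SE of the log2 difference had a median of 0.23 without the block and 0.065 with it. With the block, the 95% interval lay inside a 1.2-fold change in either direction for 59 members, inside 1.5-fold for 77 and inside 2-fold for all 79. Without the block these counts were 0, 35 and 66. The exceptions at 1.5-fold with the block, named after their values were seen, were NDUFA5, an accessory subunit with 10 transcripts of which none held most of the signal, and UQCRHL.

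Few members kept 1 direction across the sets: 7 of 79 were higher and 6 were lower with NACER_ASO in every set, against 27.2% and 11.0% of all genes. With median-of-ratios scaling the counts were 0 and 10, so the direction of such small differences turned with the scaling. Shares of all genes were not computed with that scaling. Outside the complexes, COX7A2L was lower in all 3 sets, with log2 differences of -0.16, -0.11 and -0.10. The other members described belong to complexes I and V. NDUFA10, an accessory subunit of the membrane arm with a kinase-like fold, was at 14.4, 17.5 and 13.3 FPKM in NC sets 2, 5 and 6 and at 12.4, 17.3 and 8.99 FPKM in NACER_ASO. Its log2 differences within sets were -0.20, -0.01 and -0.51, and the fit without the block gave -0.24 (SE 0.27, limma adjusted p = 0.999994). With the block the SE was 0.11 and the limma adjusted p was 0.432. The groups overlapped, and most of the difference came from set 6. NDUFB3, a membrane arm accessory subunit, was at 81.7, 90.2 and 75.2 FPKM in NC and 83.1, 92.3 and 84.3 FPKM in NACER_ASO. ATP5J, a peripheral stalk subunit, was at 78.8, 77.6 and 71.9 FPKM in NC and 82.6, 85.1 and 83.2 FPKM in NACER_ASO. All 3 NACER_ASO values of ATP5J lay above all 3 NC values, with a log2 difference of 0.14 (SE 0.14, limma adjusted p = 0.999994, and 0.411 with the block). ATP5G2, a c ring gene, was at 162, 181 and 153 FPKM in NC and at 131, 162 and 151 FPKM in NACER_ASO. Its log2 difference was -0.16 (SE 0.17 without the block, and SE 0.07 and limma adjusted p = 0.431 with it). None of these passed the test. No tested member of complexes II, III or IV lay on 1 side of NC in all 3 sets.

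Within sets, the members as a group shifted downward with NACER_ASO in set 2 and upward in set 5, with small medians. In set 2, 61 of 79 members were lower with NACER_ASO (median log2 difference -0.08), against 40.8% of all genes. In set 5, 66 members were higher (median 0.08), against 54.5% of all genes, and in set 6, 56 were higher (median 0.06), against 62.9%. Medians over all genes were 0.05, 0.01 and 0.06 in sets 2, 5 and 6. The set 6 shift turned with the scaling, as did the median of all genes. After median-of-ratios scaling 30 members were higher and 49 lower in set 6 (median -0.03), while set 2 had 75 lower (median -0.17) and set 5 had 65 higher (median 0.07). Medians over all genes were then -0.03, 0.002 and -0.04 in sets 2, 5 and 6. In set 6 the members' median thus lay close to that of all genes with and without that scaling. The order down in set 2 and up in sets 5 and 6 was shown by 45 of 79 members, against 14.3% of all genes. With that scaling 27 members showed it, and the share of all genes was not computed. Without that scaling the order held for all 11 tested subunits of complex IV and for 20 of 36 in complex I. It also held for 6 of 10 in complex III, 7 of 15 in complex V and 1 of 4 in complex II. Each of these is a difference of 1 library against 1, so no test was made, and NC set 2 was the shallowest library by the rough estimate above.

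**Figure D2:**
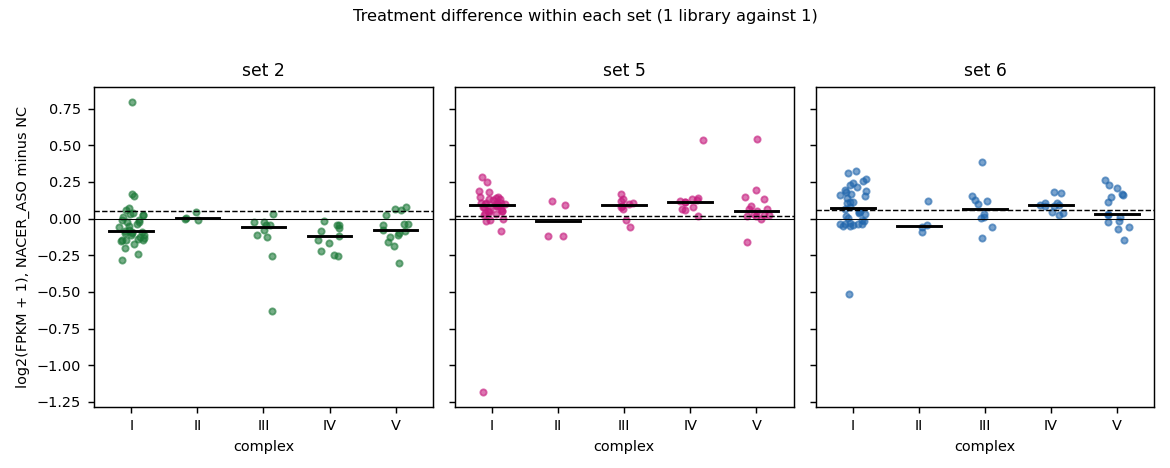
Difference of log2(FPKM + 1), NACER_ASO minus NC, of each tested member within set 2, set 5 and set 6, by complex; bars are medians of the complex and the dashed line is the median of all genes tested. Medians of complexes I, III, IV and V are below 0 in set 2 and above 0 in sets 5 and 6, between -0.12 and 0.12.

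The sets differed far more than the groups did, and most members were higher in set 5. In the contrast of set 5 with the mean of sets 2 and 6, with group and set as terms, 48 of 79 members were higher and 7 lower at a limma adjusted p of 0.05, and 24 did not pass. Among all genes 24.1% were higher and 46.6% lower (3270 and 6327 genes). The median log2 difference was 0.31 over the members and -0.22 over all genes. Scaling moved the median of all genes: it was -0.01 with median-of-ratios scaling, where 4646 genes were higher and 4707 lower and 63 members were higher and 3 lower (median 0.56), and 0.02 with quantile normalization, where 4629 genes were higher and 4429 lower and 51 members were higher and 7 lower. Both set 5 libraries lay above the other 4 for 44 members and below them for 7, against 22.7% and 41.1% of all genes.

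Each set rests on 2 libraries, 1 of each group. Without the NACER_ASO library of set 5 the members called fell from 55 to 31, and 26 higher and 3 lower members kept their call whichever library was left out and under all 3 scalings. Hepatocyte markers were also higher in set 5 (9 of 13 called, 2 lower) and the 4 stromal markers tested were lower. The part of these markers in the members' differences was not tested. In bulk RNA, fewer cells of a type and less RNA per cell cannot be told apart.

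**Figure D3:**
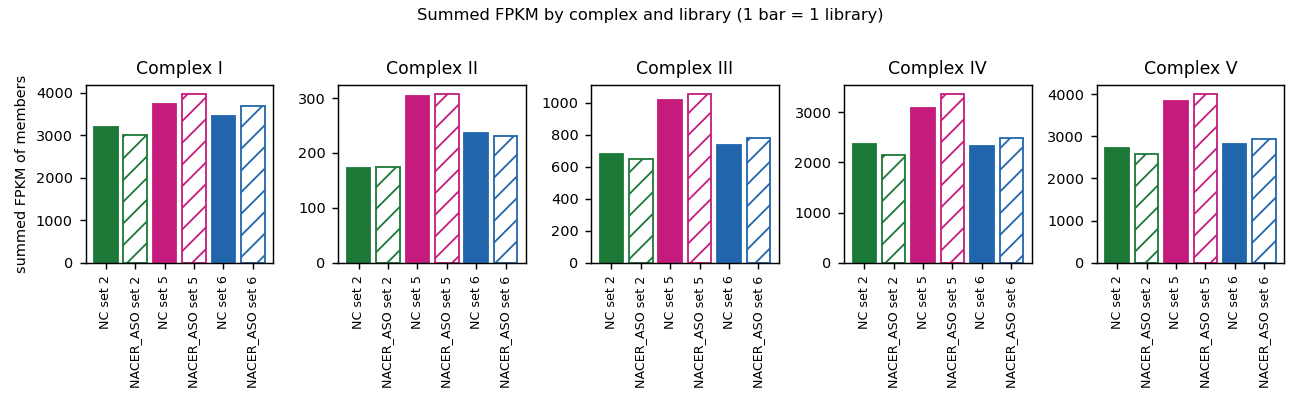
Summed FPKM of the members of each complex in each library (linear axis from 0, 1 bar a library, hatched bars NACER_ASO, colours by set). Set 5 bars are the tallest in every complex, from 3732 and 3980 FPKM in complex I to 304 and 308 FPKM in complex II.

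By complex, the sums in NC sets 2, 5 and 6 were 3205, 3732 and 3451 FPKM for complex I, and 3014, 3980 and 3699 FPKM in NACER_ASO. Complex II summed to 173, 304 and 237 FPKM in NC and to 174, 308 and 231 FPKM in NACER_ASO. Complex III summed to 677, 1017 and 736 FPKM in NC and to 647, 1056 and 782 FPKM in NACER_ASO, and complex IV to 2364, 3087 and 2319.7 FPKM in NC and to 2137, 3366 and 2477 FPKM in NACER_ASO. Complex V summed to 2728, 3839 and 2825 FPKM in NC and to 2576, 4005 and 2943 FPKM in NACER_ASO. In all 5 complexes and both groups the set 5 library had the highest sum.

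**Figure D4:**
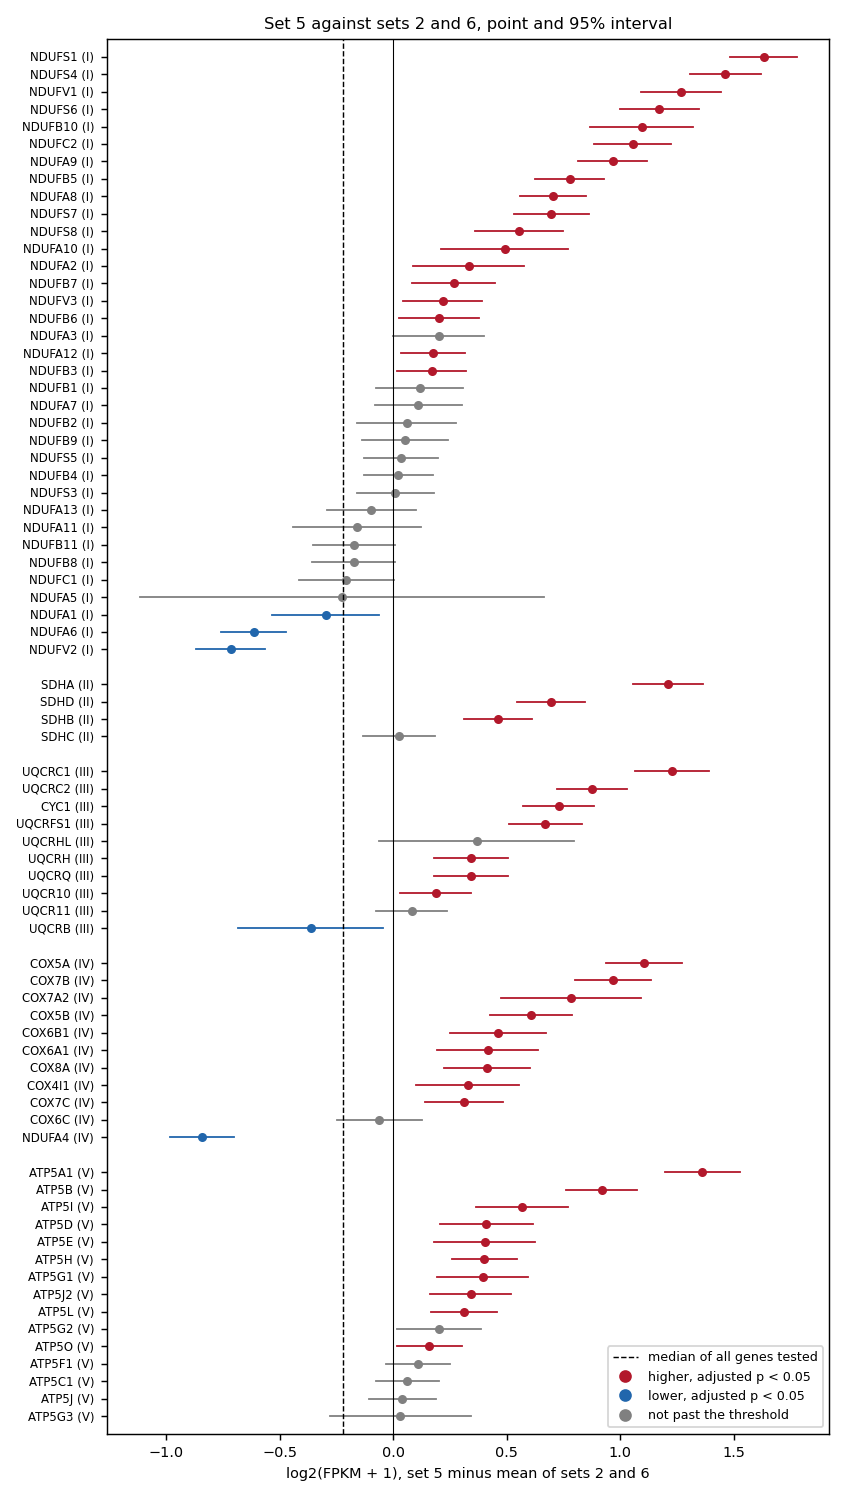
Log2(FPKM + 1) of set 5 minus the mean of sets 2 and 6 for tested members of complexes I to V, with 95% intervals from limma; red is higher, blue lower, grey not past an adjusted p of 0.05, and the dashed line is the median of all genes tested. Each complex has members well above 0, up to 1.63 for NDUFS1, and complexes I, III and IV each have at least 1 below 0, down to -0.84 for NDUFA4.

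In complex I, 18 of 36 subunits were higher in set 5 and 4 lower, with a median log2 difference of 0.17. The complex has a peripheral arm, which takes up NADH and carries the electrons, and a membrane arm, which pumps protons. In the peripheral arm 4 of 7 core subunits were higher and 2 lower (median 0.55), and 6 of 9 accessory subunits were higher and 1 lower (median 0.22). Of 20 membrane arm subunits, 8 were higher and 1 lower (median 0.09). Some of these higher calls were lost when a library was left out: NDUFV3, NDUFA2 and NDUFA12 in the peripheral arm, and NDUFA10, NDUFB3, NDUFB6 and NDUFB7 in the membrane arm. NDUFS1 (hg19 chr2:206987803-207024243), the largest iron-sulfur subunit, was at 28.3, 90.8 and 27.9 FPKM in NC sets 2, 5 and 6 and at 28.1, 85.6 and 26.9 FPKM in NACER_ASO. Both set 5 values were far above the other 4 (ratio of means 3.17, log2 difference 1.63, SE 0.06, limma adjusted p = 9.37e-06). NDUFS4 (hg19 chr5:52856463-52979171), an accessory subunit that is needed to complete the NADH module and whose loss in people causes Leigh syndrome, was at 22.0, 63.1 and 24.1 FPKM in NC and 22.7, 67.9 and 23.6 FPKM in NACER_ASO. Its log2 difference was 1.46 (SE 0.06, adjusted p = 1.6e-05, ratio of means 2.83). For both genes the set 5 pair was clear of all other libraries.

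Other complex I members went the opposite way, and partners within a module did not move together. NDUFV2 (hg19 chr18:9102628-9134343), whose values are given above, was lower in set 5 by a log2 difference of -0.72 (SE 0.06, adjusted p = 0.00017). NDUFV1, named after its values were seen, binds the flavin that accepts electrons from NADH and sits beside NDUFV2. It was at 140.3, 342 and 151 FPKM in NC and 131, 367 and 166 FPKM in NACER_ASO, a log2 difference of 1.27 (SE 0.07, adjusted p = 3.69e-05). The ratio of NDUFV1 to NDUFV2 in FPKM was 0.477, 1.69 and 0.378 in NC sets 2, 5 and 6 and 0.492, 1.82 and 0.427 in NACER_ASO. A ratio within a library does not depend on its scaling, and it crossed 1 in set 5 alone among the 3 sets. Also lower in complex I, and named after their values were seen, were NDUFA6 (log2 difference -0.62) and NDUFA1 (-0.30). The NDUFA1 call was lost with median-of-ratios scaling (adjusted p = 0.696), without NC set 5 (0.341) and without NACER_ASO set 6 (0.0678). NDUFA13 was not called (-0.10), and its sign turned with median-of-ratios scaling (0.15), while it was called lower with quantile normalization (-0.19, adjusted p = 0.0250) and when NACER_ASO set 2 was left out (-0.16, adjusted p = 0.0266).

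Complex II gave 3 of 4 subunits higher in set 5. SDHA (hg19 chr5:218338-257197), the flavoprotein that oxidises succinate, was at 26.2, 71.4 and 36.6 FPKM in NC and 26.1, 77.6 and 39.8 FPKM in NACER_ASO, a log2 difference of 1.21 (SE 0.06, adjusted p = 2.81e-05). With its most abundant transcript alone the difference was 0.75 and did not pass (adjusted p = 0.11). SDHA has related copies elsewhere in the genome. SDHB, the iron-sulfur subunit, was at 73.8, 114 and 100.2 FPKM in NC and 73.4, 121 and 96.1 FPKM in NACER_ASO (log2 difference 0.46, SE 0.06, adjusted p = 0.000914). SDHD, a membrane anchor, was at 42.1, 75.9 and 48.9 FPKM in NC and 42.2, 69.9 and 45.7 FPKM in NACER_ASO (log2 difference 0.69, SE 0.06, adjusted p = 0.000175). For these 3 genes both set 5 libraries were the highest. SDHC, the second anchor, was not higher in set 5: it was at 31.3, 42.5 and 50.8 FPKM in NC and 32.3, 39.0 and 49.4 FPKM in NACER_ASO, so that set 6 was highest and set 5 lay between the others (log2 difference 0.03, SE 0.06, adjusted p = 0.736). SDHC was called higher with median-of-ratios scaling (0.27, adjusted p = 0.0138). The ratio of SDHA to SDHC was 1.68 and 1.99 in set 5 and between 0.720 and 0.836 in the other 4 libraries.

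All 4 core subunits of complex III were higher in set 5 (median log2 difference 0.80), whereas its small subunits divided into 3 higher, 1 lower and 1 not called (median 0.19). Of the small subunits, UQCR10 lost its call without NC set 5 (limma adjusted p = 0.166), NC set 6 (0.131), NACER_ASO set 5 (0.395) or NACER_ASO set 6 (0.0828). UQCRQ lost its call without NACER_ASO set 5 (0.115). UQCRC1 (hg19 chr3:48636432-48647098), a matrix-facing core protein, was at 74.3, 194 and 100.8 FPKM in NC and 68.1, 206 and 101 FPKM in NACER_ASO. Its log2 difference was 1.23 (SE 0.07, adjusted p = 3.1e-05). UQCRC2, the other core protein, was at 35.7, 78.3 and 53.5 FPKM in NC and 36.5, 83.0 and 51.3 FPKM in NACER_ASO, a log2 difference of 0.88 (SE 0.06, adjusted p = 7.9e-05). The same order, set 5 over set 6 over set 2, was shown by both core proteins in either group. The remaining core genes, CYC1 for cytochrome c1 and UQCRFS1 for the Rieske iron-sulfur protein, had log2 differences of 0.73 and 0.67. UQCRH was higher by 0.34 (SE 0.07, adjusted p = 0.00433), a call that was lost without the NC library of set 5 (0.29, adjusted p = 0.103). UQCRB, named after its values were seen, was lower by a log2 difference of -0.36 (adjusted p = 0.0459) and was not called with either other scaling, nor without NC set 2 (adjusted p = 0.0913), NC set 5 (0.115), NACER_ASO set 5 (0.193) or NACER_ASO set 6 (0.0678).

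In complex IV, 9 of 11 subunits were higher in set 5, COX6C was not called and NDUFA4 was lower. COX5A (hg19 chr15:75212617-75230495), a subunit on the matrix side, was at 120.2, 274 and 133 FPKM in NC and 117, 286 and 151 FPKM in NACER_ASO. Its log2 difference was 1.10 (SE 0.07, adjusted p = 4.97e-05). COX7B was at 217, 356 and 164 FPKM in NC and 208, 393 and 177 FPKM in NACER_ASO, with a log2 difference of 0.97 (SE 0.07). NDUFA4 (hg19 chr7:10971580-10979813), an outer subunit of the complex, was at 132, 69.6 and 125 FPKM in NC and 129.9, 73.5 and 129 FPKM in NACER_ASO. Both set 5 libraries were far below the other 4 (ratio of means 0.555, log2 difference -0.84, SE 0.06, adjusted p = 6.91e-05). The ratio of COX5A to NDUFA4 was 3.94 and 3.89 in set 5 and between 0.898 and 1.17 in the other 4 libraries. The abundant COX7C and COX6A1 were higher by 0.31 and 0.42. The COX7C call was lost without NC set 5 (adjusted p = 0.0852), without NC set 6 (0.0611), without NACER_ASO set 5 (0.117) and with quantile normalization (0.0974). The COX6A1 call was lost without NACER_ASO set 5 (adjusted p = 0.0909). The paralogues COX4I1, COX6B1, COX7A2 and COX8A were each higher, with log2 differences of 0.33, 0.46, 0.78 and 0.41. Without NACER_ASO set 5 the calls of COX4I1 (adjusted p = 0.232), COX6B1 (0.065) and COX8A (0.0858) were lost, and that of COX4I1 was also lost without NC set 6 (0.0566).

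In complex V, 10 of 15 tested subunits were higher in set 5 and 0 lower by limma. Of the higher ones, only ATP5A1, ATP5B, ATP5H and ATP5I kept their call whichever library was left out and under all 3 scalings. Calls of ATP5D, ATP5J2, ATP5L and ATP5O were lost without NACER_ASO set 5 (log2 differences 0.38, 0.34, 0.28 and 0.15). That of ATP5O was also lost with quantile normalization (0.10, limma adjusted p = 0.268). The catalytic head led: ATP5A1 (hg19 chr18:43664110-43684199), the alpha subunit, was at 133, 367 and 171 FPKM in NC and 128, 384 and 154 FPKM in NACER_ASO. Its log2 difference was 1.36 (SE 0.07, adjusted p = 2.33e-05). ATP5B, at the levels given above, was higher by 0.92 (SE 0.06, adjusted p = 7.42e-05). The ratios of the set 5 mean to the mean of the other sets were 2.56 for ATP5A1 and 1.89 for ATP5B. ATP5C1, the gamma subunit that turns within the head, was not called (log2 difference 0.06, SE 0.06, adjusted p = 0.352), and the ratio of ATP5A1 to ATP5C1 was 1.84 and 1.91 in set 5 and between 0.710 and 0.827 elsewhere. ATP5E was higher by 0.40, a call lost without NACER_ASO set 5 (0.33, adjusted p = 0.111). Of the c ring genes ATP5G1 was higher (0.39, not called without NACER_ASO set 5, adjusted p = 0.0716), and ATP5G2 (0.20, adjusted p = 0.0504) and ATP5G3 (0.03) were not called. ATP5G3 was at 77.8 FPKM in NC set 5 and 114 FPKM in NACER_ASO set 5, a gap larger than in sets 2 and 6, where the groups lay within 2 FPKM of each other. Of the 3 symbols outside the complexes, COX7A2L, which encodes a supercomplex assembly factor, was lower by a log2 difference of -0.23 (0.01 with median-of-ratios scaling), ATP5SL was higher by 0.26 and ATP5S was not called. The calls of COX7A2L and ATP5SL were lost when NC set 5 (adjusted p = 0.187 and 0.0707), NACER_ASO set 5 (0.143 and 0.254) or NACER_ASO set 6 (0.0522 and 0.0565) was left out.

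Calls for set 5 are given side by side for members with and without a promoter motif, and the difference was not tested. Among the 30 tested members with at least 1 motif the median log2 difference of set 5 was 0.37, with 18 higher and 1 lower. Among the 34 with a promoter and no motif it was 0.29, with 24 higher and 4 lower. The promoters printed above were not picked by a fixed rule. Each holds a motif and belongs to a member called higher in set 5, so they do not represent all members. Of the promoters printed above, those of NDUFS4, SDHD and ATP5A1 belong to members with differences of 1.46, 0.69 and 1.36, and those of NDUFS7, UQCRQ and COX5B to members with 0.70, 0.34 and 0.61, the UQCRQ call being lost without NACER_ASO set 5 (adjusted p = 0.115).

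Set 6 differed from set 2 less, and again mostly upward. In this contrast 28 of 79 members were higher and 2 lower (COX7B and ATP5S), against 20.9% and 27.3% of all genes (2843 and 3707 genes). Median log2 differences were 0.16 over the members and -0.04 over all genes. With median-of-ratios scaling the median of all genes was 0.13, with 4629 genes higher and 2776 lower and 46 members higher and 1 lower, and with quantile normalization 3718 genes were higher and 2851 lower, and 24 members higher and 6 lower. Of the 30 members called, 9 higher and 1 lower kept their call whichever library was left out and under all 3 scalings. Without the NC library of set 6, or without its NACER_ASO library, 15 members were called. In the same contrast 11 of the 13 hepatocyte markers were lower in set 6 and 0 higher by limma, and the part of this in the members' differences was not tested.

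SDHC, at the levels given above, was higher in set 6 than in set 2 by a log2 difference of 0.64 (SE 0.08, limma adjusted p = 0.00192). UQCRC2 was higher by 0.53 (SE 0.07, adjusted p = 0.00287). ATP5D, the delta subunit of the central stalk, was at 56.4, 87.4 and 79.4 FPKM in NC and 53.1, 97.1 and 95.5 FPKM in NACER_ASO and was higher in set 6 by 0.66 (SE 0.10, adjusted p = 0.00359). For these 3 genes the set 2 libraries were the lowest. COX7B was lower in set 6 by -0.32 (SE 0.08, adjusted p = 0.0201). That call was lost with median-of-ratios scaling (-0.13, adjusted p = 0.326), without either library of set 6 (adjusted p = 0.174 without NC and 0.0948 without NACER_ASO) and, narrowly, without either library of set 5 (0.0511 and 0.0514).

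Genes around the chain did not all follow the subunits in set 5, where 24.1% of all genes were higher and 46.6% lower. Of 14 genes of the tricarboxylic acid cycle, which feeds the chain with NADH and succinate, 11 were higher and 2 lower (median log2 difference 0.47). The lower call of IDH3A was lost with median-of-ratios scaling (limma adjusted p = 0.210) and with quantile normalization (0.0937). Higher calls of DLST and IDH3G were lost without NC set 5 and without NACER_ASO set 5. SUCLG1, a subunit of succinyl-CoA ligase, was at 33.9, 130.5 and 51.7 FPKM in NC sets 2, 5 and 6 and 37.6, 143 and 52.0 FPKM in NACER_ASO, a log2 difference of 1.64. Complex IV assembly factors gave 12 higher and 6 lower of 23 (median 0.43), and complex I assembly factors 3 higher and 5 lower of 16 (median 0.01). The counts were 1 and 2 of 6 for complex III, 2 and 1 of 4 for complex V and 1 and 1 of 4 for complex II. With median-of-ratios scaling the lower calls of SCO2, COX16, COA7, PET100 and CMC2 (complex IV) were lost. So were those of NDUFAF1, TIMMDC1 and TMEM126A (complex I), SDHAF2 (complex II) and UQCC2 (complex III). The higher calls of ATPAF1 and ATPAF2 (complex V) were lost without NC set 5 and without NACER_ASO set 5. Without NACER_ASO set 5 the higher calls of COX15, COA5 and PET117 (complex IV) and NDUFAF2 (complex I) were also lost. CYCS, the cytochrome c gene, lies outside the symbol rule and was lower, at 71.9, 42.3 and 74.3 FPKM in NC and 69.2, 43.3 and 67.1 FPKM in NACER_ASO (log2 difference -0.71, SE 0.06, adjusted p = 0.000199). NDUFAB1, the acyl carrier protein of complex I, was higher by 0.92. USMG5, also outside the rule, was lower by -0.28 (limma adjusted p = 0.00836), a call lost with median-of-ratios scaling (0.739). Among the 6 listed genes of the chain outside the rule that were tested, these included, 1 was higher and 2 were lower (median -0.02).

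Of 12 regulators of nuclear respiratory genes, 4 were higher and 3 lower in set 5, against the 24.1% and 46.6% of all genes. The lower calls of GABPB1 (limma adjusted p = 0.287) and PPRC1 (0.0577) were lost with median-of-ratios scaling. The higher call of TFB1M was lost without NACER_ASO set 5 (0.0832). NRF1 (-0.09), GABPA (-0.07), YY1 (0.15) and TFAM (-0.03) were not called. PPARGC1A, a coactivator of mitochondrial biogenesis, was at 3.17, 0.0929 and 2.10 FPKM in NC and 4.56, 0.0981 and 2.70 FPKM in NACER_ASO, a log2 difference of -1.88 (SE 0.13, adjusted p = 6.86e-05) on a scale that understates changes of low genes. PPARGC1B, its relative, was at 1.12, 3.92 and 0.883 FPKM in NC and 1.11, 3.04 and 0.733 FPKM in NACER_ASO (log2 difference 1.19). ESRRA, the nuclear receptor that both coactivate, was higher by 0.62. Between NACER_ASO and NC, 0 genes of these lists passed the limma test.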

How the data were processed

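Per the labels' protocols, RNA was extracted with Trizol and libraries were made from 1 ug of total RNA with a TruSeq Stranded mRNA kit. The deposited file gives FPKM, a fragment density per transcript length and library size, for 63714 RefSeq transcripts placed on hg19, per the file headers. FastQC 0.11.5, Bowtie2 2.2.6 and StringTie 1.3.3b are named in the submitters' processing notes, but settings are not stated there.

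Values of all transcripts of a symbol were added. A gene was tested if 3 or more libraries reached 1 FPKM. The limma package (version 3.58.1, R 4.3.3) modelled log2(FPKM + 1) using a trended variance and two-sided tests with Benjamini-Hochberg adjustment over all genes tested at 0.05. The pseudocount of 1 makes log2 differences of low genes too small. FPKM are not counts and whole reads were not recovered, so no count model was used, and the depths implied by low values are rough. The knockdown fit had the group alone. Sets were compared with group and set as terms. Intervals are 95% from the fit, and scripts were tested on simulated data.

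Set numbers came from the sample titles. Deviations from the group means correlated across genes between the NC and NACER_ASO library of a set (0.901 in set 2, 0.966 in set 5, 0.898 in set 6). The set was therefore used as a pairing in the knockdown fit with the block, while the main knockdown fit ignored it. Alternatives were a pseudocount of 0.1, filters of 5 FPKM or none, median-of-ratios scaling, quantile normalization, the most abundant transcript only, and each library left out. Members, lists and tests were chosen with earlier results of these data known. Genes named were the 2 most abundant members of each complex and all of complex II, the 2 with the smallest p for treatment among those on 1 side of NC in all sets, the 2 and 1 with the smallest p for set 5 and set 6, and paralogues. Some items are not reported here.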

Additional observations from a re-analysis of the deposited data

Results flagged for a closer look

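The within-set difference between NACER_ASO and NC had opposite directions in set 2 and in sets 5 and 6 for 4 of the complexes. In complex I the median log2 difference was -0.0819 (set 2), 0.0889 (set 5) and 0.0731 (set 6). For complex III it was -0.0608, 0.0913 and 0.0671, for complex IV -0.119, 0.115 and 0.0895, and for complex V -0.0793, 0.0490 and 0.0303 in the same order. Over all genes tested it was 0.0513, 0.0149 and 0.0586. In set 6 the complex V median thus lay below that of all genes, and those of complexes I and III lay close to it. The difference between the sets was not tested, because each set holds 1 library of either group. With median-of-ratios scaling the median in set 6 was below 0 over all members (-0.0270) and over all genes (-0.0384).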

How the results depend on the processing

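The count of 0 members called for treatment was the same under every alternative run, the block included. Over all genes the treatment count of 0 became 3, 14 and 58 when the block was used without set 2, set 5 or set 6, and 5 when it was combined with median-of-ratios scaling, an alternative chosen after seeing the data. The block was an alternative for the treatment fit alone, because the set contrasts already hold the set as a term. For set 5, members called ranged from 31 to 60 with 1 library left out. For set 6 against set 2, members called ranged from 15 to 41 with 1 library left out and reached 47 with median-of-ratios scaling, and genes called numbered 4310 with the filter of 5 FPKM (2394 higher, 1916 lower) and 3752 with the most abundant transcript only (1792 higher, 1960 lower), where fewer genes were tested. Members higher with NACER_ASO in all 3 sets numbered 0 with median-of-ratios scaling and 4 with the most abundant transcript, and members lower in all 3 numbered 10 with that scaling. The set 5 difference of NDUFA13 turned to 0.15 with median-of-ratios scaling, and that of SDHC turned to -0.0056 without NC set 2 and -0.035 without NC set 5, and reached at most 0.0867 with 1 library left out. Of the other comparisons of a named member under an alternative, 325 were unchanged in direction and call, 13 lost and 3 gained a call, and the causes were not tested. Counted were the most abundant members and complex II for set 5, and members named by smallest p in the comparison that named them. Members named only as paralogues were not counted, and set 5 calls that they lost are given above. Depth limits low members most, and leave-one-out fits have few residual degrees of freedom.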
